A study of Mus musculus with 8 samples.

Results

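Fast excitation in the brain is carried by ionotropic glutamate receptors and fast inhibition by GABA-A receptors, and the genes of 32 of their subunits and of related metabotropic receptors were followed here across the cell classes of single-nucleus RNA-seq libraries. The 32 genes were taken by name from the 32285 genes of the count table. They comprised 4 AMPA receptor subunits (Gria1 to Gria4), 6 NMDA receptor subunits (Grin1, Grin2a to Grin2d and Grin3a), 5 kainate receptor subunits (Grik1 to Grik5), the delta receptor Grid1, 6 metabotropic glutamate receptors (Grm2, Grm3, Grm4, Grm5, Grm7 and Grm8) and 10 GABA-A receptor subunits (Gabra2 to Gabra6, Gabrb1, Gabrb2, Gabrg1, Gabrg3 and Gabrd). The mice were 6 months old and labelled C57BL6/J, and nuclei came from hemispheres from which the cerebellum and the olfactory bulb had been taken off. The 4 genotypes, with 2 libraries each, were WT, Cnp-/- (a null allele of Cnp, which encodes a protein of the myelin sheath), 5xFAD (transgenes with familial Alzheimer mutations under the neuronal Thy1 promoter) and Cnp-/- 5xFAD. The study's reporting form gives pooled animals for its single-cell work, but the number of animals per library at this age is not clear from the sources used here, and p-values measure the spread between libraries. Cnp itself followed the labels in mature oligodendrocytes, at 219 to 321 CPM (counts per 1e6 UMIs of the summed profile) in the 4 libraries with an intact gene and at 23.2 to 32.8 CPM in the 4 libraries of the null background.

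AMPA receptors are tetramers that open within milliseconds, and the subunit encoded by Gria2 makes them poorly permeable to calcium. NMDA receptors join the obligatory subunit of Grin1 with Grin2 or Grin3 products. Those with Grin2a or Grin2b products need both glutamate and depolarization to open. Kainate receptors modulate synapses on either side of the cleft, whereas metabotropic receptors signal through G proteins. GABA-A receptors are chloride channels of 5 subunits, most often alpha, beta and gamma, while delta takes the place of gamma in receptors outside the synapse. Glia carry several of these receptors as well, and oligodendrocyte precursor cells (OPC) receive synapses from neurons.

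The table held 61949 nuclei in 8 libraries of 6801 to 8824 nuclei and 68905044 to 82399061 unique molecular identifiers (UMIs), with a median of 6811 UMIs per nucleus. The authors' classes were neurons (45141 nuclei, median 9105 UMIs), mature oligodendrocytes (5612 nuclei, 1515 UMIs), astrocytes (4810 nuclei, 2636 UMIs), microglia (2472 nuclei), endothelial cells (1667 nuclei), OPC (1522 nuclei, 3036 UMIs), newly formed oligodendrocytes (465 nuclei) and pericytes (260 nuclei). The textbook markers checked were each highest in their own class, except Cspg4, an OPC marker that was highest in pericytes, and Rgs5, a pericyte marker that was highest in endothelial cells. Of 61494 distinct barcodes, 454 occurred in more than 1 library. UMIs were summed per library and class and scaled to CPM, and profiles of fewer than 20 nuclei were left out, which removed 1 pericyte profile. Gene levels of classes are given as descriptions without tests, because the classes were made by clustering on these same counts. The neurons of the libraries also differed in make-up, since nuclei that passed the gate for Gad1 and Gad2 described below made up 8.53% of the neurons of Cnp-/- 5xFAD replicate 2 and 35.6% of those of WT replicate 1.

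One library stood apart in several receptor genes. Gabra6 encodes an alpha subunit that textbooks place in granule cells of the cerebellum, a region that had been dissected away. It gave 3116 UMIs in 886 nuclei of WT replicate 2 and 0 to 9 UMIs in each of the other 7 libraries. In neurons this was 43.6 CPM in WT replicate 2, against 0 to 0.136 CPM elsewhere. Of these UMIs, 2517 lay in 1 of the authors' clusters, number 25, to which WT replicate 2 gave 717 of 864 nuclei. The same cluster had the highest levels among 25 neuronal clusters of Grin2c, at 109 CPM, and of Grm4, at 144 CPM. Without its nuclei, the neurons of WT replicate 2 fell from 25.5 to 6.90 CPM for Grin2c, from 50.5 to 29.8 CPM for Grm4, from 40.7 to 32.1 CPM for Gabrd and from 43.6 to 9.41 CPM for Gabra6. Its astrocytes stood apart as well, with 1002 CPM of Gria4 against 0.935 to 47.3 CPM in the other 7 libraries, and 58 of its 479 astrocyte nuclei held at least 5 Gria4 UMIs while 0 to 3 nuclei did in each other library. Of these 58 nuclei, 48 also held at least 5 UMIs of Gria1. What sets this library apart was not tested, and results that rest on it are given with and without it.

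**Figure D1:**
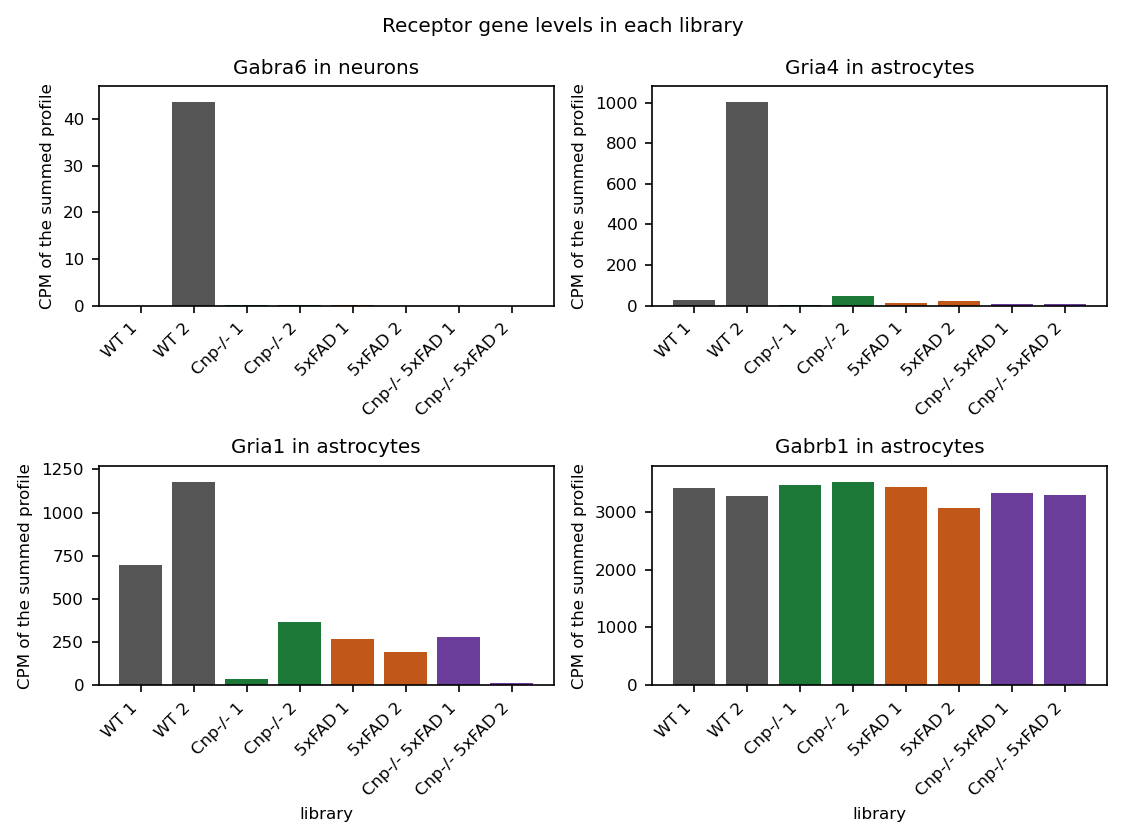
CPM of Gabra6 in neurons and of Gria4, Gria1 and Gabrb1 in astrocytes, as 1 bar for each of the 8 libraries, coloured by genotype. Gabra6 at 43.6 CPM and Gria4 at 1002 CPM stood out in WT replicate 2, Gria1 varied from 12.8 to 1176 CPM, and Gabrb1 stayed between 3057 and 3509 CPM in all libraries.

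Neurons held the highest mean level of 19 of the 32 genes, astrocytes and OPC of 5 each, pericytes of 2 and microglia of 1. Without WT replicate 2 these counts were 17 for neurons, 5 for astrocytes, 6 for OPC, 2 for pericytes and 1 each for mature and newly formed oligodendrocytes, because Grin2d, Grik2 and Gabra6 changed place. The Grik2 means were then close, at 1090 CPM in mature oligodendrocytes and 1074 CPM in neurons. The former pools libraries with and without Cnp, which did not overlap for this gene. The genes that stood furthest above the next class in neurons were Grm8, which encodes a presynaptic group III metabotropic receptor, at 473 CPM and 11 times the level in endothelial cells, Grin2b at 1427 CPM and 10.8 times, and Grin2a at 1251 CPM and 10.6 times. The products of Grin2a and Grin2b are the principal NMDA receptor partners of Grin1 in the forebrain. Endothelial nuclei, the next class for all 3, held 9 neuronal markers at 7.7% to 34.4% of their level in neurons, and only 3 of the 32 genes lay above that range there.

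**Figure D2:**
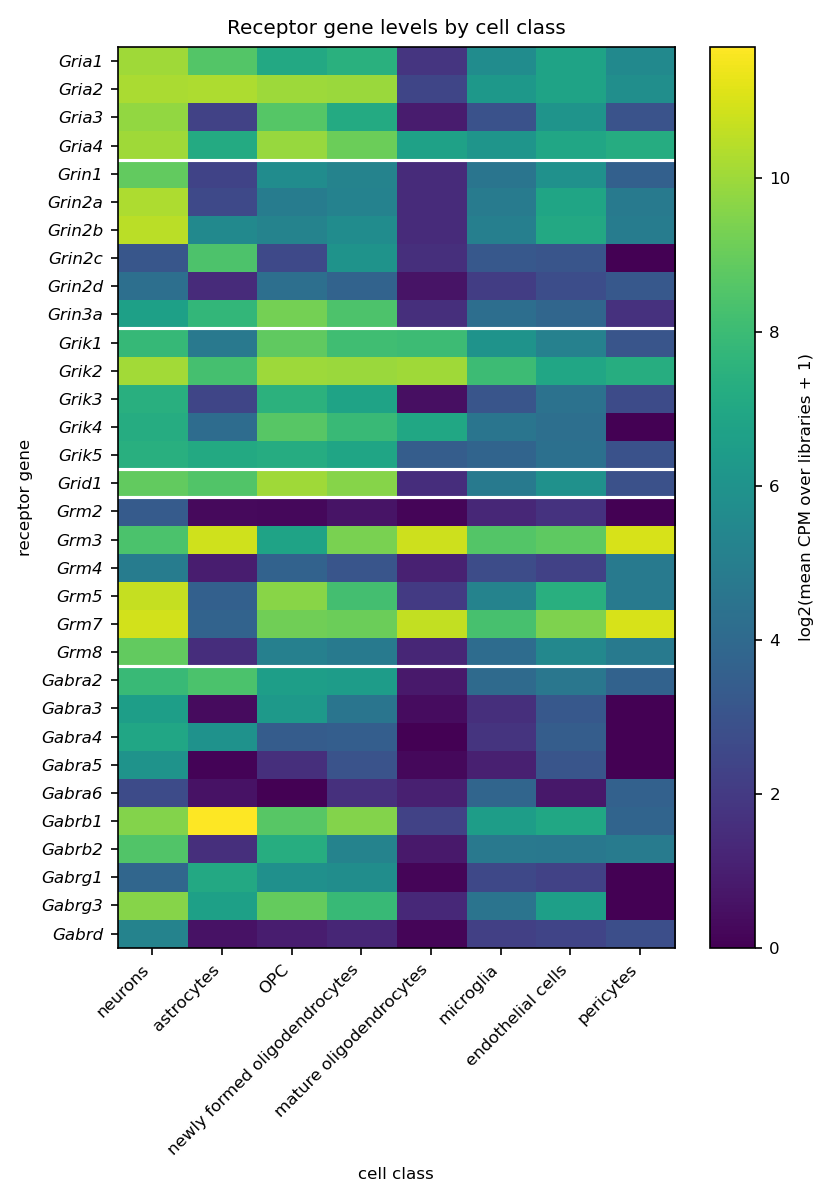
Mean level of each of the 32 receptor genes (vertical axis, ordered by family) in the 8 cell classes (horizontal axis), as log2(mean CPM over libraries + 1) in colour. Grin2c and Gabrb1 are brightest in astrocytes, Grin3a, Grik1 and Grik4 in OPC, and mature oligodendrocytes keep Grik2, Grm3 and Grm7 while most other genes are dark.

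Levels of different genes were compared per length, as each gene's share of the summed level of its family. This was done per 100 kb of gene span and per kb of exons, because the sources do not say if reads from introns were included. Levels in neurons increased with span (Spearman rho 0.75 across the 32 genes) and with exon length (0.61), given as descriptions.

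For the glial families named here, the same gene led on both scales in the mean over libraries. In astrocytes Gria2 made up 86.4% of the AMPA subunit level per span and 47.9% per exon length, Grin2c 93% and 77.6% of the NMDA subunit level, Grik5 80% and 47.4% of the kainate subunit level, Gabrb1 58.8% and 75.2% of the GABA-A subunit level, and Grm3 99.2% and 99.4% of the metabotropic receptor level. The AMPA lead per exon length did not hold in the WT libraries, where Gria1, at 694 and 1176 CPM, was above Gria2 on that scale. In mature oligodendrocytes Grm3 made up 81% and 68.4% of the metabotropic level, and Grik2 57.4% and 56.1% of the kainate level. In OPC Grin3a led the NMDA genes on both scales, with 55.6% and 80.3%.

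In neurons the leading gene of each of these 5 families changed with the scale, so no order among neuronal subunit genes is given. Gria2 led per span (51.3%) and Gria1 per exon length (34.3%), and Grin1 led per span (69.9%) and Grin2a per exon length (36.8%). The leads went from Grik5 (45.2%) to Grik2 (42.9%), from Gabrd (23.7%) to Gabrg3 (22%) and from Grm5 (37.4%) to Grm7 (49.6%). The other 4 families changed leader in OPC too, for example from Gria2 (65.6%) to Gria4 (54.6%).

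In neurons, 27 genes reached 20 CPM, and their levels varied little among libraries. The median coefficient of variation over the 8 libraries was 10.1%, from 5.07% for Grin2b to 43.9% for Grm4, which encodes another presynaptic group III receptor. The AMPA subunit gene Gria2 ran from 1073 to 1288 CPM with a median of 1190, and Grin1 from 437 to 523 CPM with a median of 483. Grm5, which encodes a postsynaptic receptor coupled to calcium release, ran from 1408 to 1919 CPM with a median of 1643. Grm4, with the highest coefficient of variation of these 27 genes, was at 42.9 and 50.5 CPM in the WT libraries, 25.2 and 32.7 CPM in Cnp-/-, 18.8 and 25.8 CPM in 5xFAD and 21.6 and 12.6 CPM in Cnp-/- 5xFAD. The other AMPA genes averaged 1055 CPM for Gria1, 888 CPM for Gria3 and 1057 CPM for Gria4. Of the GABA-A genes, Gabrg3 averaged 759 CPM, Gabrb1 748 CPM, Gabrb2 366 CPM, Gabra2 246 CPM, Gabra4 122 CPM, Gabra3 93.0 CPM, Gabra5 63.8 CPM and Gabrd 37.2 CPM. In the low range of CPM were Grin2d at 18.5 CPM, Gabrg1 at 13.5 CPM, Grm2 at 9.38 CPM and Grin2c at 7.68 CPM. These values are not scaled for length and give no order of abundance among genes.

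For Grm4 both WT libraries were the highest, and neurons of both also had the most Tcf7l2 (64.7 and 54.1 CPM against 5.53 to 19.1 CPM), a transcription factor of thalamic neurons. Tcf7l2 was also at 502 CPM in astrocytes. By cluster, Grm4 was highest in cluster 25, at 144 CPM, and next in cluster 7, at 123 CPM, against a median of 24.2 CPM. WT replicate 2 gave 717 of 864 nuclei of cluster 25. Without them its neurons were at 29.8 CPM, below Cnp-/- replicate 2. WT replicate 1 and Cnp-/- replicate 2 gave 1164 and 1183 of the 2409 nuclei of cluster 7. The part of neuronal make-up in the Grm4 levels was not tested.

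Astrocytes take up glutamate and GABA at synapses and sense both transmitters. The gene that stood furthest above the next class in astrocytes was Grin2c, which encodes an NMDA receptor subunit of low magnesium block, on chr11:115249169-115267243 of mm10. It was at 356 and 316 CPM in WT, 379 and 350 CPM in Cnp-/-, 371 and 335 CPM in 5xFAD and 364 and 331 CPM in Cnp-/- 5xFAD. All 8 libraries lay above every library of newly formed oligodendrocytes, the next class, whose mean was 64.2 CPM, and the astrocyte mean was 5.45 times as high. The obligatory partner gene Grin1 was at 0 to 6.71 CPM in astrocytes, and at 482 CPM in neurons.

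Gabrb1, a beta subunit gene on chr5:71658113-72149037, was at 3413 and 3275 CPM in WT, 3467 and 3509 CPM in Cnp-/-, 3419 and 3057 CPM in 5xFAD and 3323 and 3290 CPM in Cnp-/- 5xFAD. Its mean of 3344 CPM was 4.47 times that of the next class, and its coefficient of variation of 4.28% was the lowest among the receptor genes of astrocytes. Its first bases overlap the span of Gabra4, which lies on the other strand, and in that short stretch reads of both genes can be told apart only if strand was used. Gabrg1, a gamma subunit gene, followed at 134 CPM (108 to 150 CPM, median 138) and 2.3 times the level in OPC. Gabra2, an alpha subunit gene, was at 330 CPM in astrocytes and 246 CPM in neurons, with overlapping libraries. Alpha, beta and gamma subunit genes were thus all present, while Gabra5, Gabra3 and Gabrd averaged 0.0858, 0.261 and 0.491 CPM.

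Grm3, which encodes a group II metabotropic receptor that lowers cyclic AMP, was at 1833 CPM in astrocytes, with a range of 1493 to 2086 CPM and a median of 1845. The 9 neuronal markers stood at 0.418% to 3.85% of their neuronal level in astrocytes, and 18 of the 32 receptor genes lay above that range, Gabra6 and Gria4 among them. Without WT replicate 2 Gabra6 was at 0 in astrocytes. Gria4 was then at 18.0 CPM against 1050 CPM in neurons, which is within that range. Not all of the 18 genes were steady. Gria1 was at 694 and 1176 CPM in WT, 34.6 and 366 CPM in Cnp-/-, 270 and 194 CPM in 5xFAD and 282 and 12.8 CPM in Cnp-/- 5xFAD, and 0 to 119 astrocyte nuclei per library held at least 5 of its UMIs. Both WT libraries lay above the 6 others, the other genotypes overlapped, and the mean without WT replicate 2 was 265 CPM instead of 379 CPM. The mean of Gria4 was 141 CPM with that library and 18.0 CPM without it.

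OPC divide in the adult brain and give rise to new oligodendrocytes. Grin3a, whose product lowers the calcium permeability of NMDA receptors, was at 707 and 597 CPM in WT, 603 and 629 CPM in Cnp-/-, 640 and 577 CPM in 5xFAD and 593 and 502 CPM in Cnp-/- 5xFAD. Its mean of 606 CPM was 1.76 times that of newly formed oligodendrocytes and compared with 101 CPM in neurons. Of the kainate subunit genes, Grik4 reached 401 CPM (330 to 483, median 397) and Grik1 455 CPM (340 to 518, median 470), both 1.65 times the level in newly formed oligodendrocytes without overlap of libraries. Grid1, a delta receptor gene whose product binds cerebellin at synapses, was at 1042 CPM in OPC and 764 CPM in newly formed oligodendrocytes, and these libraries overlapped. Grik3 was at 183 CPM in OPC and 164 CPM in neurons, again with overlap.

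Several of these genes were far lower in mature oligodendrocytes than in OPC and newly formed oligodendrocytes, the earlier stages of the lineage. Grin3a went from 606 to 345 and 1.96 CPM, Grid1 from 1042 to 764 and 1.90 CPM, Gria2 from 1007 to 972 and 4.40 CPM and Gabrb1 from 401 to 749 and 3.92 CPM. Grik2, which encodes a pore-forming kainate subunit, had like means over all genotypes in the 3 stages, at 1006, 975 and 1042 CPM. The mature mean pools libraries with and without Cnp, which did not overlap for this gene, as given below. Those with Cnp all lay below the OPC mean and those without it above. Grm3 increased along the stages, from 109 to 653 and 1788 CPM. Newly formed oligodendrocytes were few (22 to 104 nuclei per library) and had Mbp at 29.2% and the astrocyte marker Slc1a3 at 25.1% of the level of their classes, and the part of other classes in their profile was not tested.

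Mature oligodendrocytes therefore had a short list of receptor genes. Only 6 of the 32 genes reached 20 CPM on average, namely Grm3 (1461 to 1988 CPM), Grm7 (1295 to 2149 CPM), Grik2 (709 to 1355 CPM), Grik1 (165 to 374 CPM), Grik4 (39.0 to 190 CPM) and Gria4 (53.4 to 151 CPM). Grm7 encodes a presynaptic metabotropic receptor of low glutamate affinity. The neuronal markers stood at 0% to 2.08% of their neuronal level in this class, while Grik2 was at 95.3% of it in the mean over all genotypes. Gabra4 had 0 UMIs in the 5612 nuclei, which allows a level of up to 3 in 9445114 UMIs (counting error only).

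Vascular and microglial nuclei gave less certain profiles. Pericytes had the highest means of Grm3 (2069 CPM) and Grm7 (2060 CPM), but from 7 libraries that ran from 885 to 2973 CPM and from 274 to 3904 CPM, and both ranges overlapped those of the next class. The oligodendrocyte markers Mbp, Mog and Mag were at 0.312% to 0.642% of their oligodendrocyte level in pericytes, while Grm3 was at 116% and Grm7 at 129%. Grm4 had 7 UMIs there. In endothelial cells Grm7 was at 685 CPM (540 to 820, median 684), with the same oligodendrocyte markers at 1.73% to 1.76% and Grm7 at 43% of the oligodendrocyte level. It was at 36.1% of its level in neurons, little above the neuronal markers, which stood at 7.7% to 34.4% of theirs. The part of neuronal RNA in endothelial Grm7 was not tested. Grin2d and Grm2 followed in that class with 5.81 and 2.30 CPM, and both lay within the range of the neuronal markers there. In microglia the oligodendrocyte markers were at 14.7% to 15.9% of the oligodendrocyte level, and the 6 receptor genes of that class, Grm7, Grm3, Grik2, Grik1, Grik4 and Gria4, stood at 20%, 21.6%, 24.7%, 24.8%, 17.8% and 65.1% of theirs. Their Gabra6 mean of 13.1 CPM and Grm4 mean of 5.59 CPM rested on WT replicate 2, at 105 and 34.9 CPM, and Gabra6 was at 0 in the microglia of the other 7 libraries.

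Glutamatergic and GABAergic neurons were compared within libraries, to see which subunit genes differ between them. Nuclei entered the Slc17a7 gate with at least 2 UMIs of Slc17a7, the vesicular glutamate transporter of cortical neurons, and no UMI of Gad1 or Gad2 (16584 nuclei, median 11205 UMIs). They entered the Gad gate with at least 2 UMIs of Gad1 and Gad2, the GABA-synthesizing enzymes, and none of Slc17a7 or Slc17a6 (9175 nuclei, median 6606 UMIs). Neither gate took 42.9% of neurons, and 3325 neurons held at least 2 UMIs of both kinds. None of the 32 genes was used in the gates. The test was edgeR's quasi-likelihood test of the 16 summed profiles with the library as a block.

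The gates differed in most receptor genes. Of 31 tested, 10 were higher and 16 lower in Gad-gated neurons at an adjusted p below 0.05, beside 52.2% of all genes tested. DESeq2 called 26 of them as well, beside 45.3% of all genes. Gabra6 did not pass the filter on low counts. Of the AMPA subunit genes 2 were higher and 2 lower, of the NMDA subunit genes 3 and 3, of the kainate subunit genes 2 and 3, of the metabotropic receptor genes 1 and 4 and of the GABA-A subunit genes 2 and 4.

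**Figure D3:**
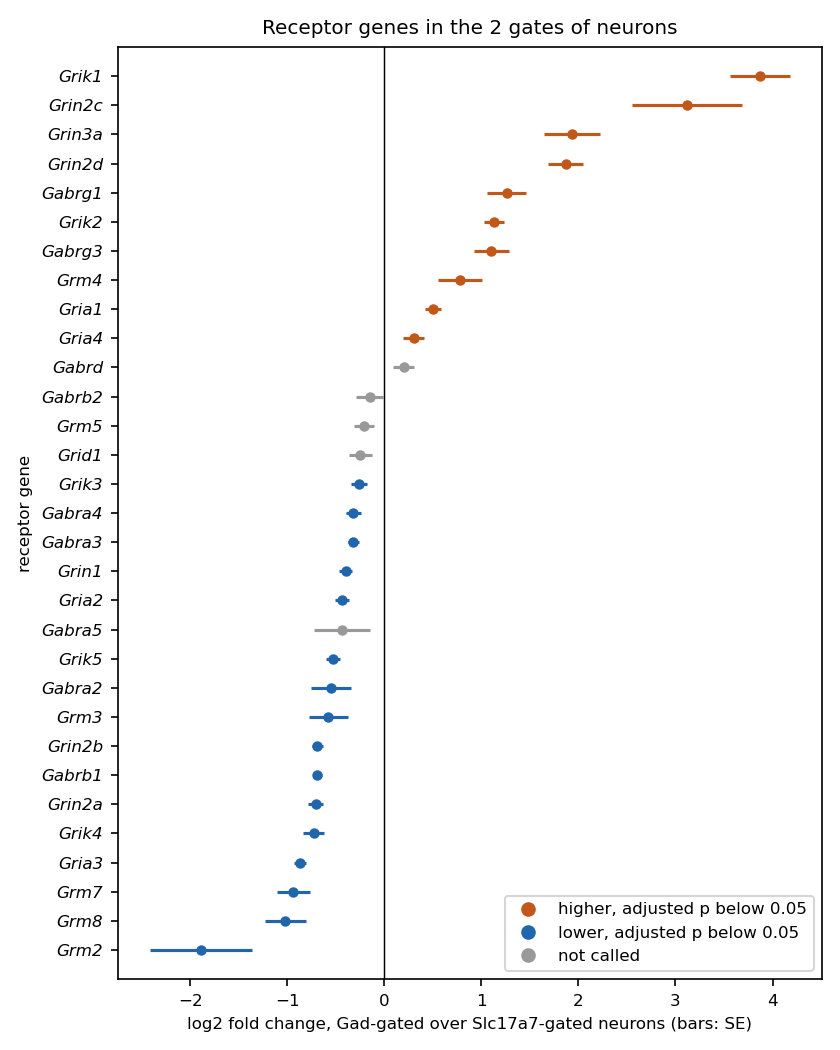
Log2 fold change of Gad-gated over Slc17a7-gated neurons (horizontal axis, bars are SE, 8 libraries) for the 31 receptor genes tested (vertical axis), coloured by whether the adjusted p of edgeR was below 0.05. Grik1 lies at 3.87 and Grm2 at -1.89, and 5 genes were not called.

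Grik1 differed most. In Gad-gated neurons it was at 381 and 944 CPM in WT, 628 and 478 CPM in Cnp-/-, 1387 and 566 CPM in 5xFAD and 789 and 1121 CPM in Cnp-/- 5xFAD, and in Slc17a7-gated neurons at 28.7 to 79.0 CPM with a median of 48.3. The gates did not overlap, and the log2 fold change was 3.87 (SE 0.31, adjusted p = 1.2e-05, edgeR). Grin3a was higher by 1.93 (SE 0.29, adjusted p = 0.000456), at 125 to 350 CPM against 23.3 to 68.5 CPM. Grin2d, which encodes an NMDA subunit of slow decay, was higher by 1.87 (SE 0.18, adjusted p = 3.24e-05), at 28.3 to 67.6 CPM against 8.39 to 11.2 CPM. These 3 genes were higher in the Gad gate in 8 of 8 libraries.

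Gabrg1 was higher by 1.26 (SE 0.20, adjusted p = 0.000792), at 14.6 to 34.4 CPM against 4.99 to 13.4 CPM. Grin2c was higher by 3.12 (SE 0.57, adjusted p = 0.00161), but low, at 5.02 to 25.6 CPM against 0.214 to 12.6 CPM, and the highest Slc17a7-gated value was that of WT replicate 2. Its log2 fold change was 3.58 without that library and 2.33 (adjusted p = 0.0101) without the library block. The summed level of the astrocyte markers was also higher in the Gad gate, at 47.7 to 267 CPM against 3.48 to 27.5 CPM, and the 2 Gad-gated libraries with the most (WT replicate 1 and Cnp-/- replicate 2, at 215 and 267 CPM) had the most Grin2c, at 25.6 and 23.0 CPM. Grin2c and Gabrg1 were both highest in astrocytes, and the part of astrocyte RNA in these differences was not tested. Grik2 rose by 1.13 and Gabrg3 by 1.10 in the Gad gate, both without overlap of libraries.

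On the other side, Grm2, which encodes a group II autoreceptor, was lower by 1.89 on the log2 scale (SE 0.53, adjusted p = 0.0144), Grm8 by 1.02 (SE 0.21, adjusted p = 0.00334) and Grm7 by 0.94 (SE 0.17, adjusted p = 0.00151). Grm7 did not overlap, at 820 to 1923 CPM in the Gad gate and 1996 to 2270 CPM in the Slc17a7 gate. Grm2 was at 8.98 to 14.0 CPM in Slc17a7-gated neurons and at 0.915 to 2.14 CPM in 6 of the Gad-gated libraries, but at 13.0 CPM in WT replicate 1 and 13.9 CPM in Cnp-/- replicate 2. Without the library block its log2 fold change was -1.23 (adjusted p = 0.0449, edgeR). Grm8 was at 449 to 593 CPM in the Slc17a7 gate, and the same 2 libraries were its highest in the Gad gate, at 565 and 492 CPM, while the other 6 lay between 196 and 343 CPM. These libraries gave 1164 and 1183 of the 2409 nuclei of the authors' cluster 7, and their Gad-gated neurons held 2228 CPM of Meis2 each against 70.5 to 903 CPM in the others.

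The AMPA subunit gene Gria3 was lower by 0.87 (SE 0.06, adjusted p = 7.62e-06), at 565 to 773 CPM against 979 to 1134 CPM. Grik4 was lower by 0.73 (SE 0.11, adjusted p = 0.000587), at 54.1 to 137 CPM against 118 to 225 CPM. Gria3 was lower in the Gad gate in every library without overlap, and Grik4 in every library with overlap of the ranges. Grid1, Grm5, Gabra5, Gabrb2 and Gabrd did not pass the test, with log2 differences of -0.44 to 0.20. For Gabrd the ranges were 30.4 to 53.1 CPM and 27.0 to 42.7 CPM.

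Gated neurons were split further by at least 2 UMIs of a marker gene, and neurons gated on Slc17a6 were set beside them, which gave 11 subgroups whose levels are described over the libraries with at least 20 such nuclei. Gad-gated nuclei with Sst, the somatostatin gene of dendrite-targeting interneurons, had the highest Grik1 (2045 CPM), Grik2 (2513 CPM), Gria1 (2723 CPM) and Grin3a (878 CPM) of the subgroups. Those with Pvalb, a marker of fast-spiking interneurons, were highest in Gria4 (1855 CPM) and lowest in Gabra2 (46.0 CPM) and Grm7 (492 CPM). Those with Vip had the highest Grin2d (66.8 CPM) and the lowest Gria3 (222 CPM). The nuclei with Sst and Pvalb numbered 273 and 227, of which WT replicate 2 gave 92 and 83. Levels of these subgroups without that library are not given.

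Striatal projection neurons carry dopamine receptors and formed another pole. Gad-gated nuclei with Drd2 and those with Drd1 were the highest and next highest in Grm5 (2795 and 2357 CPM), Grid1 (662 and 656 CPM) and Grm3 (661 and 542 CPM). Nuclei with Drd1 led in Gabrg3 (2518 CPM) and Grm7 (2825 CPM). Gabra4 and Gabrd, whose products assemble into extrasynaptic receptors, were highest with Drd2, at 197 and 78.4 CPM. Among Slc17a7-gated nuclei, those with Fezf2 or Foxp2, markers of deep cortical layers, led all subgroups in Gria2 (1450 and 1341 CPM) and in Grm8 (746 and 726 CPM). The Gad-gated nuclei with Drd2 and Drd1 numbered only 360 and 178, most of them from WT replicate 1, Cnp-/- replicate 1, 5xFAD replicate 2 and Cnp-/- 5xFAD replicate 1.

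The genotypes were compared to ask whether loss of Cnp, the 5xFAD transgenes or their combination changed receptor genes in any class. Each effect of a factor was averaged over the other, with 4 libraries against 4, and the interaction is the difference of the Cnp effect between 5xFAD and other mice. In 18 combinations of contrast and class, 450 tests of receptor genes gave 1 call at an adjusted p below 0.05 by edgeR (0.222%, beside 0.0289% of the tests of all genes). At an unadjusted p below 0.05 there were 53 (11.8%, beside 5.53%), and DESeq2 made 9 calls (1.65% of its tests, beside 0.384%). The tests share libraries, and neurons share nuclei with both gates, so that these shares are descriptions. The call was Grik2 in mature oligodendrocytes with loss of Cnp.

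**Figure D4:**
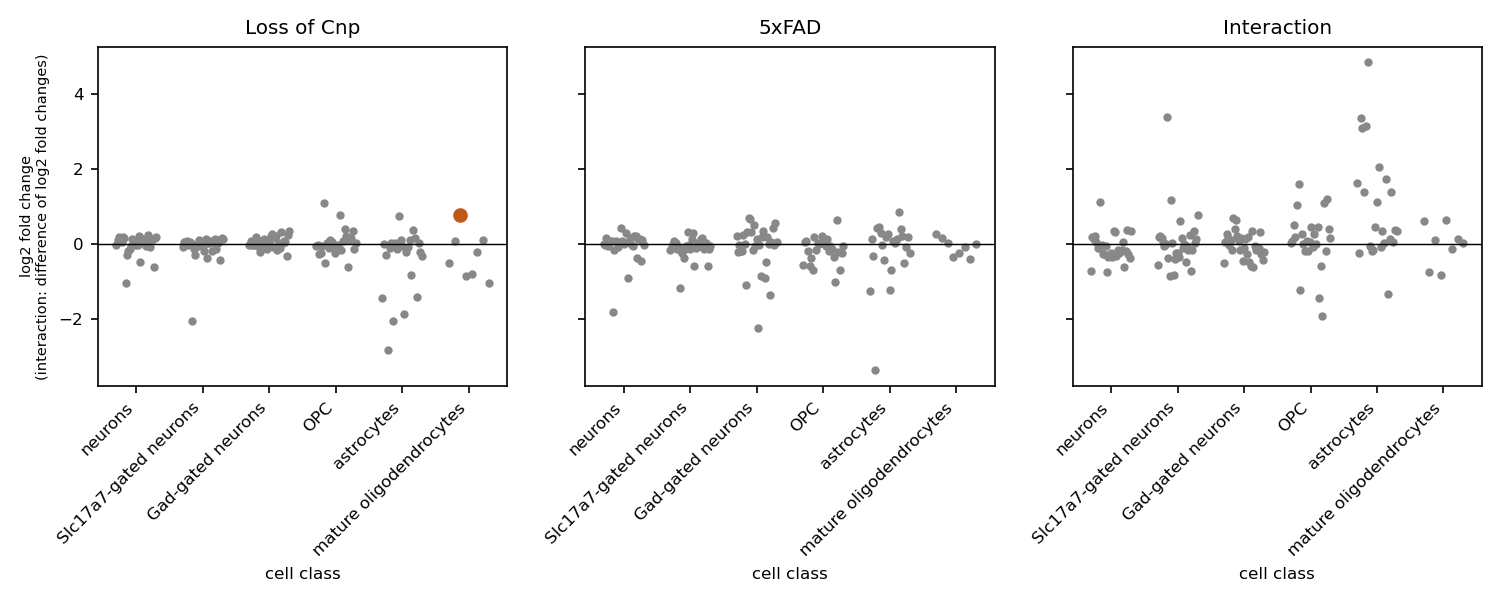
Log2 fold changes of the receptor genes tested in 6 classes (horizontal axis), for loss of Cnp, 5xFAD and their interaction (the interaction is a difference of log2 fold changes). Each point is a gene, and the larger orange point is Grik2 in mature oligodendrocytes at 0.77, the only call. The spread is wide in astrocytes, where it reaches 4.85 for the interaction.

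Grik2 in mature oligodendrocytes was at 882 and 709 CPM in WT, 809 and 778 CPM in 5xFAD, 1215 and 1250 CPM in Cnp-/- and 1337 and 1355 CPM in Cnp-/- 5xFAD. All 4 libraries without Cnp lay above all 4 libraries with it. The log2 fold change was 0.77 (SE 0.10, adjusted p = 0.0232, edgeR), and 1 of 8 receptor genes tested was called beside 0.765% of all genes. DESeq2 called the same gene and no other member, beside 3.44% of all genes. At an unadjusted p below 0.05, as for 12% of all genes, was also Grik4, whose log2 fold change was -0.85 (SE 0.28, adjusted p = 0.257), at 147 and 169 CPM in WT, 190 and 150 CPM in 5xFAD, 96.9 and 126 CPM in Cnp-/- and 95.9 and 39.0 CPM in Cnp-/- 5xFAD. For Grik4, all 4 libraries without Cnp lay below all 4 libraries with it. The gene Grik2 spans chr10:49094833-49788766 of mm10 on the minus strand.

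The direction of the Grik2 difference held in every alternative run, with log2 fold changes of 0.70 to 0.85 and adjusted p from 2.41e-10 to 0.123. The call rested on nearly all libraries, since the adjusted p of edgeR was 0.0842 without WT replicate 2, 0.0736 without Cnp-/- replicate 2, 0.109 without 5xFAD replicate 1, 0.118 without 5xFAD replicate 2, 0.081 without Cnp-/- 5xFAD replicate 1 and 0.123 without Cnp-/- 5xFAD replicate 2. In the same class, 5xFAD gave a log2 fold change of 0.03 (SE 0.10) for Grik2. In neurons, loss of Cnp gave -0.06 (SE 0.06, adjusted p = 0.853). Whether the effect in mature oligodendrocytes differs from that in other classes was not tested.

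**Figure D5:**
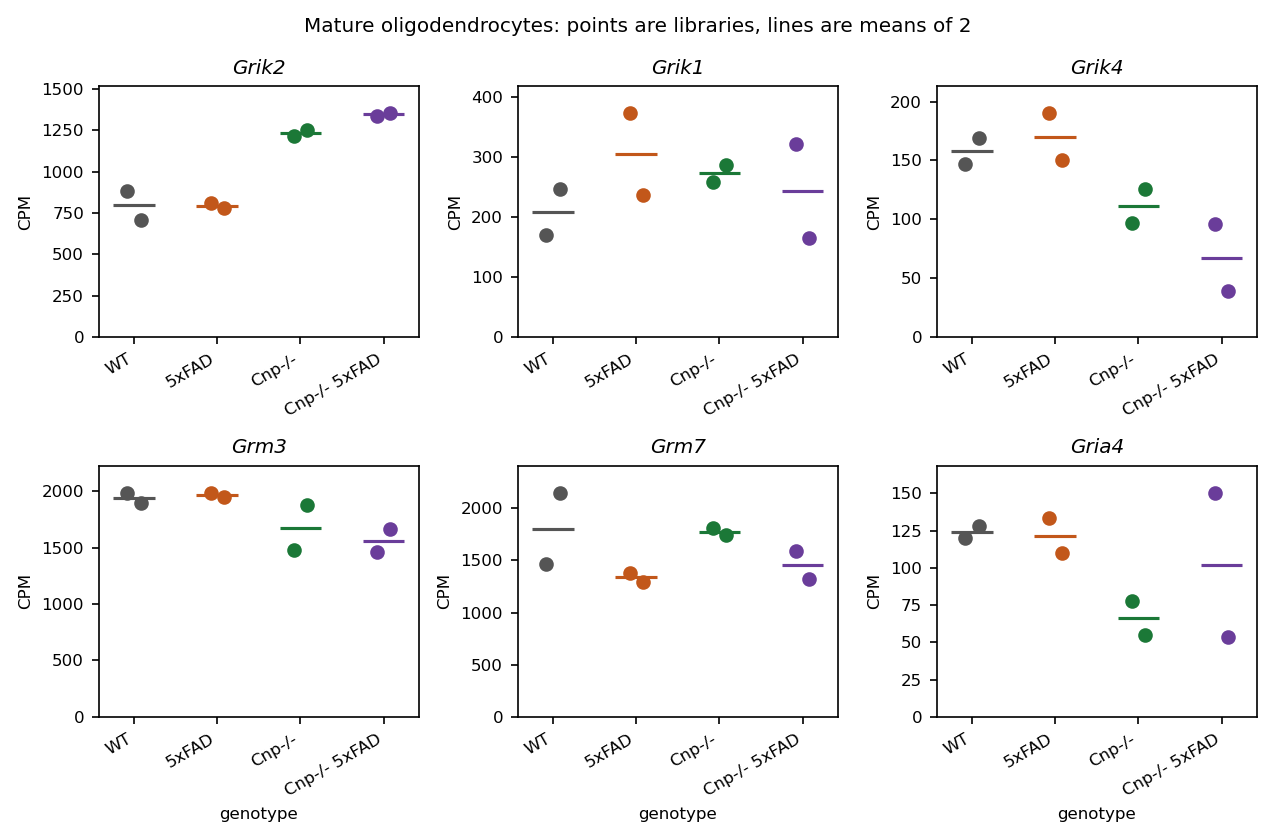
CPM of 6 receptor genes in mature oligodendrocytes (vertical axes start at 0) by genotype, each point a library and each line the mean of 2. Grik2 lies at 709 to 882 CPM with Cnp and at 1215 to 1355 CPM without it. Grik4, which was not called, lies lower without Cnp and does not overlap either, while the genotypes overlap for Grik1 and Grm7.

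In mature oligodendrocytes neither 5xFAD nor the interaction gave a call, with 0% of all genes called by edgeR in each, 1 and 0 receptor genes at an unadjusted p below 0.05 (3.72% and 3.41% of all genes), and no member called by DESeq2, beside 0.00968% of all genes in each. The lowest p for 5xFAD was that of Grm7, at 1462 and 2149 CPM in WT, 1807 and 1739 CPM in Cnp-/-, 1382 and 1295 CPM in 5xFAD and 1589 and 1317 CPM in Cnp-/- 5xFAD. Its log2 fold change was -0.39 (SE 0.14), and the libraries overlapped.

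In neurons 31 genes were tested, and edgeR called 0 of them in each contrast, beside 0.0185% of all genes for loss of Cnp and 0% for 5xFAD and for the interaction. At an unadjusted p below 0.05 there were 6, 9 and 2, beside 8.14%, 11.8% and 4.94% of all genes. DESeq2 called 0, 2 and 0, beside 0.827%, 2.7% and 0.248% of all genes. The lowest p for loss of Cnp belonged to Gabra4, at 112 and 103 CPM in WT, 118 and 125 CPM in 5xFAD, 123 and 117 CPM in Cnp-/- and 137 and 140 CPM in Cnp-/- 5xFAD (log2 fold change 0.23, SE 0.06, adjusted p = 0.474, edgeR). The libraries with and without Cnp overlapped.

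For 5xFAD the DESeq2 calls were Grm4 and Grin2c. The log2 fold change of Grm4 was -0.89 (SE 0.18, adjusted p = 0.28 by edgeR, 0.000411 by DESeq2), and the libraries overlapped. Grin2c was at 12.04 and 25.47 CPM in WT, 2.97 and 8.88 CPM in Cnp-/-, 3.03 and 4.12 CPM in 5xFAD and 3.55 and 1.36 CPM in Cnp-/- 5xFAD, with a log2 fold change of -1.81 (adjusted p = 0.28 by edgeR, 0.0377 by DESeq2). The summed astrocyte markers in neurons were at 90.2 and 71.3 CPM in WT and 38.6 and 91.7 CPM in Cnp-/-. They were at 29.6 and 49.2 CPM in 5xFAD and 37.4 and 19.6 CPM in Cnp-/- 5xFAD. The part of astrocyte RNA in the Grin2c difference was not tested. Without WT replicate 2 edgeR gave -0.84 (adjusted p = 0.35) for Grm4 and -1.50 (adjusted p = 0.356) for Grin2c. With the same number of nuclei per library from each of the 10 clusters that had at least 50 nuclei in every library, an alternative chosen after seeing the data, the values were -0.58 (adjusted p = 0.445) and -0.80 (adjusted p = 0.547).

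Within the Slc17a7 gate edgeR called 0 of 31 genes in each contrast, beside 0.0215% of all genes for loss of Cnp and 0% for the other contrasts, with 3, 4 and 9 at an unadjusted p below 0.05 (5.72%, 6.29% and 6.05% of all genes). DESeq2 called 1, 1 and 4, beside 0.214%, 0.802% and 1.34% of all genes. Its call for loss of Cnp was Gabra6, which rested on WT replicate 2, where it reached 26.5 CPM while no other library was above 0.247 CPM. Its calls in the interaction were Grik3, Grm3, Grm8 and Gabrd, and that for 5xFAD was Grm3. Grm3 was at 311 and 335 CPM in WT, 284 and 286 CPM in Cnp-/-, 342 and 317 CPM in 5xFAD and 477 and 403 CPM in Cnp-/- 5xFAD, so that the Cnp-/- 5xFAD libraries were the highest. Its interaction was 0.63 (adjusted p = 0.574 by edgeR, 0.00338 by DESeq2), and 0.50 (adjusted p = 0.823, edgeR) over matched clusters, which in this gate were 8 clusters with at least 20 nuclei in every library. These libraries also had the most Rorb, a marker of cortical layer 4, at 254 and 244 CPM against 127 to 189 CPM, and its part in the Grm3 values was not tested.

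Grik3 was at 147 and 135 CPM in WT, 211 and 189 CPM in Cnp-/-, 198 and 177 CPM in 5xFAD and 154 and 141 CPM in Cnp-/- 5xFAD (interaction -0.83, adjusted p = 0.544 by edgeR, 0.000657 by DESeq2). Cnp-/- was thus above WT, and Cnp-/- 5xFAD below 5xFAD, in these libraries. Over matched clusters the interaction was -0.47 (adjusted p = 0.76, edgeR). Gabrd was at 36.7 and 38.3 CPM in WT, 32.9 and 29.8 CPM in Cnp-/-, 27.0 and 30.2 CPM in 5xFAD and 37.4 and 42.7 CPM in Cnp-/- 5xFAD, the opposite order. Its interaction was 0.77 (SE 0.14, adjusted p = 0.544 by edgeR, 0.0111 by DESeq2), and 0.35 (adjusted p = 0.969, edgeR) over matched clusters. Grm8 was at 449 and 469 CPM in WT, 593 and 538 CPM in Cnp-/-, 587 and 562 CPM in 5xFAD and 481 and 520 CPM in Cnp-/- 5xFAD, with an interaction of -0.47 (adjusted p = 0.586 by edgeR, 0.0116 by DESeq2), and -0.26 (adjusted p = 0.968, edgeR) over matched clusters. The call of Grm3 for 5xFAD had a log2 fold change of 0.30 (adjusted p = 0.748 by edgeR, 0.0112 by DESeq2), and 0.19 (adjusted p = 0.802, edgeR) over matched clusters.

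In the Gad gate edgeR called 0 of 31 genes in each contrast, beside 0% of all genes, with 0, 3 and 0 at an unadjusted p below 0.05 (1.45%, 4.11% and 1.09% of all genes). DESeq2 called 0 in each, beside 0.0152%, 0.0114% and 0.0114% of all genes. The lowest p there was that of Grm8 for 5xFAD, with a log2 fold change of -0.90 (SE 0.28, adjusted p = 0.887, edgeR), and its WT replicate 1 and Cnp-/- replicate 2 values were the high ones given above.

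In OPC edgeR called 0 of 26 genes in each contrast, beside 0% of all genes, with 2, 3 and 2 at an unadjusted p below 0.05 (4.24%, 4.39% and 3.69% of all genes). DESeq2 called 0 in each, beside 0.00499%, 0.00999% and 0% of all genes. Grin3a, which stood furthest above the next class here, had log2 fold changes of -0.11 (SE 0.10) with loss of Cnp and -0.14 (SE 0.10) with 5xFAD. Gabra3, an alpha subunit gene, had the lowest p for 5xFAD, with a log2 fold change of -1.01 (SE 0.29, adjusted p = 0.993, edgeR). It was at 96.2 and 71.4 CPM in WT, 109 and 115 CPM in Cnp-/-, 77.6 and 93.8 CPM in 5xFAD and 44.7 and 9.66 CPM in Cnp-/- 5xFAD. Both Cnp-/- 5xFAD libraries were the lowest, while the 5xFAD libraries lay between those of WT. Gabra3 also had the lowest p for the interaction, which was -1.92 (SE 0.57) and not called by edgeR.

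In astrocytes edgeR called 0 of 23 genes in each contrast, beside 0% of all genes, with 3, 2 and 2 at an unadjusted p below 0.05 (5.43%, 4.86% and 4.17% of all genes). DESeq2 called 0 in each, beside 0.0307%, 0.00878% and 0.0351% of all genes. The median SE of the 23 genes was 0.49 for loss of Cnp, 0.49 for 5xFAD and 0.98 for the interaction. Errors were narrower for Grin2c and Gabrb1, the first and second genes by ratio to the next class. Grin2c had log2 fold changes of 0.04 (SE 0.09) with loss of Cnp and -0.02 (SE 0.09) with 5xFAD, and Gabrb1 had 0.04 (SE 0.07) and -0.08 (SE 0.07). The lowest p for loss of Cnp was that of Gabra4, at 130 and 125 CPM in WT, 95.0 and 17.8 CPM in 5xFAD, 38.3 and 23.3 CPM in Cnp-/- and 42.1 and 26.8 CPM in Cnp-/- 5xFAD (log2 fold change -1.41, SE 0.49, adjusted p = 0.885, edgeR). The libraries with and without Cnp overlapped through 5xFAD replicate 2.

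The receptors work with a set of other proteins, and 41 of their genes were counted alongside, namely 11 auxiliary subunits of AMPA receptors, 2 of kainate receptors, 14 postsynaptic scaffolds, both GABA-B receptor genes and 12 genes of transmitter synthesis and transport. None of them was called in any of the 18 combinations of contrast and class by edgeR, of 12 (mature oligodendrocytes) to 41 (neurons) that passed the filter. At an unadjusted p below 0.05 the number ran from 0 to 11, the highest for 5xFAD in neurons (11 of 41, beside 11.8% of all genes), and the share of all genes ran from 1.09% to 12% over the 18 combinations. Between the gates, 15 of the 41 were higher and 15 lower in Gad-gated neurons, beside 52.2% of all genes called, and 4 genes of the list (Gad1, Gad2, Slc17a6 and Slc17a7) had defined the gates. The kainate auxiliary genes Neto1 and Neto2 were both higher, by 0.54 (SE 0.09, adjusted p = 0.000883) and 1.07 (SE 0.09, adjusted p = 1.5e-05, edgeR) on the log2 scale. Grip1, whose product binds AMPA receptors, was higher by 2.73 (SE 0.25, adjusted p = 2.41e-05), and Cnih3, an AMPA auxiliary gene, was lower by 1.88 (SE 0.13, adjusted p = 6.44e-06). Neto1 and Neto2 are named because they make up the whole kainate list, and Grip1 and Cnih3 were chosen after their values were seen.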

How the data were processed

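The authors deposited a table of UMI counts per gene and nucleus with their cluster and cell class of each nucleus. Their processing notes name Cell Ranger 6.1.2 and mm10, and the study's methods name CellBender for ambient RNA and Seurat for clustering. Intron counting and doublet removal are not given in the sources used here. Counts were summed per library and class (at least 20 nuclei) and tested with edgeR 4.0.16 (filterByExpr, TMM, quasi-likelihood, Benjamini-Hochberg over all genes tested, threshold 0.05) in R 4.3.3. The genotype model held loss of Cnp, 5xFAD and their interaction over 8 libraries, and the gate model held the library as a block. Scripts were tested on simulated data. The alternatives were DESeq2 1.42.0, its size factors, no filter, a replicate block, no library block between gates, nuclei with at least 1000 UMIs, gates of 1 and 3 UMIs, each library left out, and matched clusters (added after seeing the data). The members and lists were chosen with earlier results of these data known. All 32 genes were counted. Values were given for called genes in genotype contrasts and the 5 largest called changes per direction between gates. They were also given for the 3 genes per class with the largest ratio to the highest other class. In some classes, such as mature oligodendrocytes, all 3 were lower than in another class. Other genes were named after their values were seen.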

Additional observations from a re-analysis of the deposited data

How the results depend on the processing

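Of 258 counts of receptor genes called under an alternative, 240 stayed within 1.5 times the reported count and 18 moved. DESeq2 called 2 genes for 5xFAD in neurons, and in Slc17a7-gated neurons 1 for loss of Cnp, 1 for 5xFAD and 4 for the interaction, where edgeR called 0. Without a filter on low counts, edgeR called 1, 2 and 2 receptor genes in OPC (loss of Cnp, 5xFAD and interaction, beside 0.634%, 0.549% and 0.364% of all genes), 5, 2 and 4 in astrocytes (1.57%, 1.55% and 1.71%) and 2 in mature oligodendrocytes with loss of Cnp (2.63%). Leaving out 1 library gave 0 to 1 calls in mature oligodendrocytes with loss of Cnp, and moved no other count by more than 1.5 times. The cause of these moves was not tested. The reported count was 0 in every genotype contrast and class except loss of Cnp in mature oligodendrocytes. Counts of 0 that stayed at 0 are among the 240. The 5 largest called changes per direction between the gates (10 genes) kept direction and call in all 15 alternatives.

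The replicate numbers gave no consistent pairing of the libraries. The correlations of deviations of same-numbered libraries ran from -0.45 to 0.39, and at most 2 of 6 pairs per class were over 0.1. Pairing of only some of the genotypes was not tested. With the replicate block, 0 receptor genes were called in mature oligodendrocytes with loss of Cnp (Grik2 0.77, adjusted p = 0.058, edgeR), where 23 of 8761 genes were called in place of 67, and 0 in the other genotype contrasts. Between the gates, 25 were called without the library block, beside 8286 of all 16774 genes.

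With 2 libraries per genotype, and few UMIs in glia, small differences were not detectable for most receptor genes, and the neuronal libraries differ in make-up, with 9 of 25 clusters under 5 nuclei in at least 1 library.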
